A study of Homo sapiens with 15 samples.

Results

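The genes described here encode the enzymes of glycolysis, the transporters that carry lactate across the plasma membrane, and the enzymes that take pyruvate into the mitochondria or back toward glucose. The set was a list of 33 genes, and its members on the arrays were all probes whose RefSeq accession belonged to a listed gene. These were 38 probes of 32 genes, out of 34127 probes and 19483 named genes in all, and ALDOA was not among the genes found in this way. Every one of the 38 probes passed the filter on dim probes, which asked that the 3 tumors of some construct all have a signal well above background. It left 30598 probes of the array. Of the 32 genes, 26 had 1 probe and 6 had 2 probes (HK2, PFKP, PGAM1, LDHA, LDHB, and PCK2).

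Glycolysis splits glucose into pyruvate in the cytosol and yields ATP without oxygen. Hexokinase and phosphofructokinase carry out its committed early steps, and pyruvate kinase carries out the last one. Lactate dehydrogenase turns pyruvate into lactate, which monocarboxylate transporters carry out of the cell, whereas the pyruvate dehydrogenase complex turns pyruvate into acetyl-CoA in the mitochondria and is switched off by pyruvate dehydrogenase kinases. Many cancers, colon carcinoma included, use glycolysis and release lactate even where oxygen is present. Several of these genes are known targets of the hypoxia-inducible factors and of MYC.

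HCT116 is a human colon cancer cell line. Its cells were transiently transfected, grown as xenograft tumors in athymic nude mice, and the RNA of each tumor was hybridized to 1 one-color Agilent array. Each of 5 groups held 3 tumors: Myc-tagged wild type MOAP-1 (modulator of apoptosis 1), empty pCDNA3 Vector, the Myc-tagged MOAP-1 mutants K264R and K278R, each with the named lysine changed to arginine, and HA-tagged RASSF1A, a partner of MOAP-1. The study used the arrays to ask which genes differ when MOAP-1 is overexpressed, and its text compares MOAP-1 with Vector. The cells were transfected pools rather than single clones, and the labels do not say whether the construct was still expressed in the excised tumor, nor whether the tumors of a group came from separate transfections, so that p values measure the spread among these tumors. Mouse stroma remains in a xenograft, and in bulk tumor RNA a change in the share of a cell type cannot be told apart from a change of RNA per cell.

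The signal of a probe is given on the log2 scale with the 75th percentile of its array set to 0, so that values compare 1 probe across tumors and not different probes with each other. Before scaling, that percentile lay between 496 and 1402 intensity units. Between 85.1% and 93.1% of spots passed the scanner's background test, and no spot was saturated. The summed signal of 12 probes of 10 epithelial genes, in multiples of the 75th percentile, was 319 to 376 in Vector, 258 to 307 in MOAP-1, 252 to 272 in K264R, 219 to 328 in K278R, and 277 to 319 in RASSF1A tumors. It was thus lower in every MOAP-1 and K264R tumor than in any Vector tumor, as was the summed signal of 7 adipocyte genes (3.47 to 3.599 in MOAP-1, 3.71 to 4.14 in K264R, and 4.70 to 5.31 in Vector tumors). Such sums weigh their brightest probes most, here KRT19 and CFD, and do not show a fall of all genes. Of the probes kept, 5 of 11 epithelial and 3 of 5 adipocyte probes had a change above 0 in MOAP-1 against Vector. In K264R these were 5 of 11 and 1 of 5. The part of either cell type in the results was not tested. The 3 Vector tumors shared a slide with RASSF1A tumor 3, RASSF1A tumors 1 and 2 were on a slide of their own and were scanned on another day, the K264R tumors were on another slide, and the K278R tumors shared theirs with MOAP-1 tumor 2. For MOAP-1, K264R, and K278R against Vector, slide and construct cannot be told apart, since no slide held both groups. The same holds for MOAP-1 against K264R and against RASSF1A.

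The stretches of 250 bases before the start site are shown for 4 members whose signals behaved differently, as given by RefSeq for the build GRCh38.p14. LDHA (chr11:18394313-18394562, plus strand, the one of its 2 listed starts with more matches to the letters searched) and ENO2 (chr12:6914330-6914579, plus strand) are members with higher signal in the tumors of all 3 MOAP-1 constructs. PGK1 (chrX:78103998-78104247, plus strand) changed little in MOAP-1 tumors, and PFKL (chr21:44299803-44300052, plus strand) had lower signal. Capitals mark ACGTG on either strand, a form of the core of the hypoxia response element, which is A or G followed by CGTG. The form GCGTG was not searched for or marked.
LDHA: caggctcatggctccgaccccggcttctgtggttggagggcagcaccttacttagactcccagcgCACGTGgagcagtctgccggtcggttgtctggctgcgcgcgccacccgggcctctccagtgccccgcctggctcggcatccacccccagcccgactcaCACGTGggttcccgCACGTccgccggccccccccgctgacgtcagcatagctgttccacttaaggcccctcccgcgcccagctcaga
ENO2: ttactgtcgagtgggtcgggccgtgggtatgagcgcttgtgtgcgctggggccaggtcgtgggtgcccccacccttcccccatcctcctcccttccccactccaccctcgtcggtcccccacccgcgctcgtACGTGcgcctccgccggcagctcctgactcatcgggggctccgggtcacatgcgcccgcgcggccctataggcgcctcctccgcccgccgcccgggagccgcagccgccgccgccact
PGK1: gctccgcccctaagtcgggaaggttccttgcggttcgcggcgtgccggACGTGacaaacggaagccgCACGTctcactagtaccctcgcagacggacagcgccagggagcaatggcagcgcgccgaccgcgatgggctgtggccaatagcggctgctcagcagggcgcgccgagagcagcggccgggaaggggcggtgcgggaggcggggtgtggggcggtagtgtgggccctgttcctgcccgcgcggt
PFKL: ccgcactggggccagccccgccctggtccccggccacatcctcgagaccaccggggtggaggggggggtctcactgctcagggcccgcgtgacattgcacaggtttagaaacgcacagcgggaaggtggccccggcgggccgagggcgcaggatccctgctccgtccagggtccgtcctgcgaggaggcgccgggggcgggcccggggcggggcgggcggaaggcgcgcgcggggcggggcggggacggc

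Read on both strands, with overlapping matches counted, ACGTG occurred 5 times in the LDHA window, where CACGTG holds a match on each strand, 2 times in that of PGK1, and 1 time in that of ENO2. The PFKL window did not hold these letters, but it holds GCGTG, as does the PGK1 window, and that form was not counted. Of the 61 windows of the 31 members with a RefSeq window, 31.1% held ACGTG, beside 18.5% of all 35116 windows of the same length. By gene, 18 members (58.1%) held it in at least 1 window, beside 21.7% of all 27305 genes, but members had 61 windows for 31 genes and all genes 35116 for 27305. These letters were also present in the windows of members with no called difference, such as ALDOC, with 3 matches, so the match is a description of the sequence.

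Wild type MOAP-1 was first compared with Vector. In this comparison 8 members had higher and 4 had lower signal, where called means a Benjamini-Hochberg adjusted p below 0.05 from limma at any probe of the gene. The members higher in MOAP-1 tumors were LDHA, LDHB, ENO2, PGAM1, PKM, PDHX, PDK3, and HK2, and those lower were PFKL, PCK2, PC, and SLC16A1. Under the normexp background model, which fits the background of each array from its spots, HK2 turned lower, and PDK3 did so only while the 6 spots of extreme background on Vector tumor 2 and the 5 on Vector tumor 3 were kept. HK2 was called at a probe that was well above background in 1 of the 3 Vector tumors, and with only the probes well above background on all arrays the count was also 12, with HK1 (0.54, adjusted p = 0.049) in place of HK2. The 12 called members were 37.5% of the 32 tested, beside 35.8% of all 18025 named genes. By direction, 25% of the members were higher and 12.5% lower, beside 21.0% and 16.0% of all named genes. The shares of called members thus lay near the background. Over the 38 probes the median change was 0.08 on the log2 scale, beside 0.02 over all probes kept. The members had 1.19 probes per gene and all named genes 1.29.

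**Figure D1:**
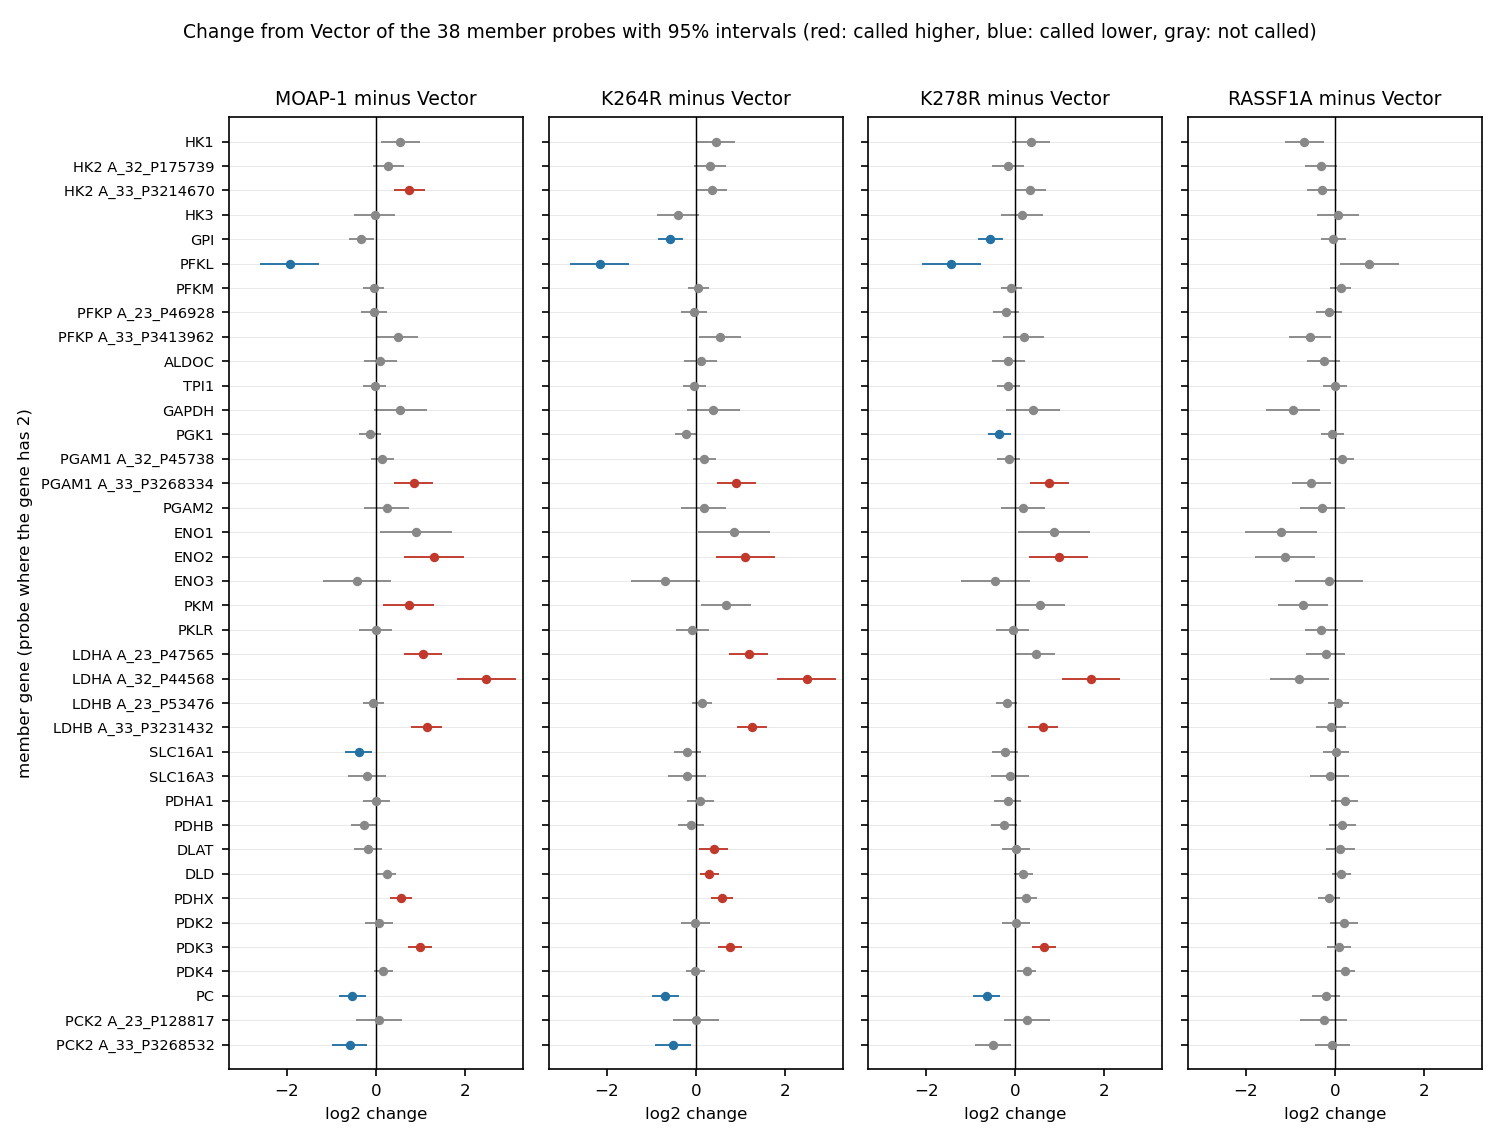
Change from Vector (x axis, log2 scale) of each of the 38 member probes (y axis, in pathway order) in MOAP-1, K264R, K278R, and RASSF1A tumors, with 95% confidence intervals from the limma fit (n = 3 tumors per construct). LDHA (2.47 at its dimmer probe in MOAP-1) and PFKL (-1.94) lie farthest from 0, and no probe is called in RASSF1A. HK2 in MOAP-1 and DLD in K264R turned negative under the normexp background model, as did PDK3 in 3 panels while spots of extreme background were kept, but not without them.

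Lactate dehydrogenase showed the largest rise of the set. LDHA encodes the subunit that predominates in tissues that make lactate. Its probe A_32_P44568 had a signal of 0.69, 0.17, and 1.48 in the Vector tumors and 3.42, 3.35, and 2.99 in the MOAP-1 tumors. In K264R tumors it read 3.44, 3.13, and 3.23, and in K278R tumors 2.04, 2.38, and 3.02. In RASSF1A tumors it read 0.22, -0.37, and 0.10. Every tumor of the 3 MOAP-1 constructs thus lay above every Vector and RASSF1A tumor. The change from Vector was 2.47 in MOAP-1 (standard error 0.30, adjusted p = 0.000222), a 5.55-fold difference. It was 2.49 in K264R (adjusted p = 0.000128) and 1.70 in K278R (adjusted p = 0.00371), each with the same standard error.

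The second LDHA probe, A_23_P47565, had a signal of 3.49, 3.61, and 3.67 in Vector and 4.82, 4.68, and 4.43 in MOAP-1 tumors. It rose by 1.05 in MOAP-1 (standard error 0.20, adjusted p = 0.00204) and by 1.18 in K264R (adjusted p = 0.000726). Both probes therefore rose in these constructs, by different amounts. In K278R, where tumors 1 and 2 read 3.79 and 3.83 and tumor 3 read 4.52, the change at this probe was 0.46 and did not pass the test (adjusted p = 0.118).

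LDHB encodes the other main subunit, which is common in oxidative tissues. Its probe A_33_P3231432 read 3.54, 3.32, and 3.62 in Vector tumors and 4.66, 4.64, and 4.58 in MOAP-1 tumors, without overlap. The change was 1.13 in MOAP-1 (standard error 0.16, adjusted p = 0.000342), 1.27 in K264R (adjusted p = 0.000135), and 0.62 in K278R (adjusted p = 0.0171). At the other LDHB probe, A_23_P53476, the 3 changes were -0.06, 0.14, and -0.20, and none passed the test. Whether LDHB is counted as higher thus rests on 1 of its 2 probes.

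**Figure D2:**
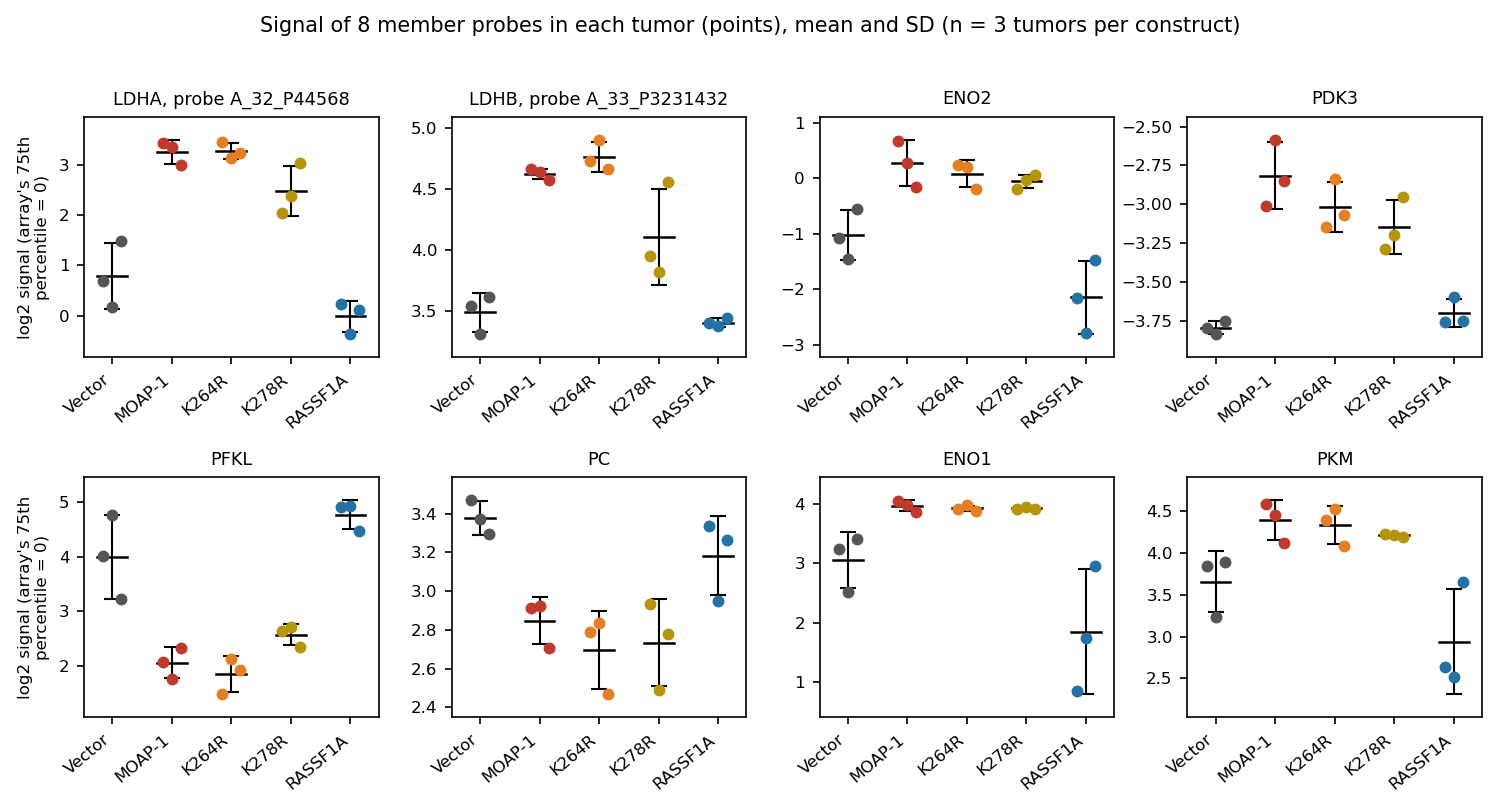
Log2 signal (y axis, 75th percentile of the array = 0) of 8 member probes in each tumor (points) of the 5 constructs (x axis), with the mean and SD of 3 tumors. The LDHA probe is at 2.99 to 3.42 in MOAP-1 and at 0.17 to 1.48 in Vector tumors, PFKL shows the opposite order, and ENO1 and PKM are lowest in RASSF1A tumors 1 and 2. The rises of PDK3 turned negative under the normexp background model with all spots kept, and stayed positive without the spots of extreme background.

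The enolases convert 2-phosphoglycerate to phosphoenolpyruvate. ENO2, the form known from neurons, had a signal of -1.07, -1.45, and -0.55 in Vector tumors and 0.68, 0.29, and -0.15 in MOAP-1 tumors. Its values were 0.25, 0.21, and -0.20 in K264R, -0.19, -0.03, and 0.06 in K278R, and -2.16, -2.79, and -1.48 in RASSF1A tumors. The groups of the 3 MOAP-1 constructs did not overlap Vector, and the RASSF1A tumors lay below all Vector tumors. ENO2 rose by 1.30 in MOAP-1 (standard error 0.31, adjusted p = 0.00732), by 1.11 in K264R (adjusted p = 0.0138), and by 0.97 in K278R (adjusted p = 0.0413). The call in K278R was lost in 9 of 21 alternatives.

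ENO1 encodes the ubiquitous enolase. It read 3.24, 2.53, and 3.42 in Vector tumors and 4.05, 3.97, and 3.87 in MOAP-1 tumors. The K264R tumors read 3.91, 3.97, and 3.88 and the K278R tumors 3.92, 3.94, and 3.92, so that these 9 tumors differed by little while the Vector tumors spread more widely. The change was 0.90 in MOAP-1 (standard error 0.37, adjusted p = 0.0839), 0.86 in K264R (adjusted p = 0.0912), and 0.86 in K278R (adjusted p = 0.115). None of the 3 passed the test, although the groups did not overlap.

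Upstream of enolase, PGAM1 encodes the widely expressed phosphoglycerate mutase. Probe A_33_P3268334 read -0.55, -0.70, and -0.05 in Vector tumors and 0.45, 0.42, and 0.36 in MOAP-1 tumors. It rose by 0.85 in MOAP-1 (standard error 0.20, adjusted p = 0.0074), by 0.91 in K264R (adjusted p = 0.00398), and by 0.77 in K278R (adjusted p = 0.0195). The brighter PGAM1 probe, A_32_P45738, changed by 0.14, 0.19, and -0.15 and was not called.

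The other enzymes of the lower part of the pathway moved less. GAPDH, glyceraldehyde-3-phosphate dehydrogenase, read 6.11, 5.42, and 6.14 in Vector and 6.58, 6.39, and 6.31 in MOAP-1 tumors, a change of 0.54 that did not pass the test (adjusted p = 0.154). PGK1, phosphoglycerate kinase, changed by -0.14 in MOAP-1, by -0.22 in K264R, and by -0.36 in K278R (standard error 0.12, adjusted p = 0.0465), of which the last was called and lost its call in 16 of 21 alternatives. TPI1, triose phosphate isomerase, differed by at most 0.15 in size from Vector in any construct, with no call. ALDOC, the brain form of aldolase, changed by 0.09 in MOAP-1 (adjusted p = 0.703).

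PKM encodes the muscle-type pyruvate kinase, whose splice forms PKM1 and PKM2 the files do not tell apart at this probe. It read 3.84, 3.24, and 3.89 in Vector tumors, 4.58, 4.45, and 4.12 in MOAP-1, 4.39, 4.52, and 4.09 in K264R, 4.23, 4.22, and 4.19 in K278R, and 2.64, 2.52, and 3.66 in RASSF1A tumors. All 9 tumors of the MOAP-1 constructs exceeded all 3 Vector tumors. The change was 0.73 in MOAP-1 (standard error 0.26), with an adjusted p of 0.0499 that lies just inside the threshold and was lost in 10 of the 21 alternatives. It was 0.68 in K264R (adjusted p = 0.0604) and 0.55 in K278R (adjusted p = 0.145), which did not pass. PKLR, the liver and red cell form, changed by -0.01, -0.08, and -0.06.

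Among the enzymes of the first steps, PFKL showed the largest fall. PFKL encodes the liver-type subunit of phosphofructokinase. Its signal was 4.01, 4.76, and 3.23 in Vector tumors and 2.07, 1.77, and 2.33 in MOAP-1 tumors. It was 1.48, 2.13, and 1.93 in K264R, 2.64, 2.71, and 2.35 in K278R, and 4.92, 4.93, and 4.48 in RASSF1A tumors. The MOAP-1 constructs lay below Vector without overlap, and Vector tumor 3 was the lowest of its group. PFKL fell by 1.94 in MOAP-1 (standard error 0.31, adjusted p = 0.000687), by 2.15 in K264R (adjusted p = 0.000256), and by 1.43 in K278R (adjusted p = 0.00808). The muscle form, PFKM, changed by -0.06, 0.06, and -0.09, with no call. The platelet form, PFKP, was not called at either probe against Vector, where the probes changed by -0.05 and 0.48 in MOAP-1.

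Of the hexokinases, which trap glucose in the cell, HK2 was called in MOAP-1 only at its dim probe A_33_P3214670. This probe was well above background in 1 of the 3 Vector tumors and in all 3 MOAP-1 tumors, so that it passed the filter through the tumors in which it was brighter. Its change of 0.74 (standard error 0.16, adjusted p = 0.00395) therefore rests on a Vector level mostly at background, and it turned to -1.48 under the normexp background model and to -0.22 without the spots of extreme background. The brighter HK2 probe, A_32_P175739, read 1.47, 1.59, and 1.84 in Vector and 2.27, 1.77, and 1.69 in MOAP-1 tumors, a change of 0.28 that was not called (adjusted p = 0.213). HK1, the housekeeping form, changed by 0.54 (adjusted p = 0.0551), and HK3, a form known from leukocytes, by -0.04. GPI, which converts glucose 6-phosphate to fructose 6-phosphate, fell by 0.57 in K264R (standard error 0.13, adjusted p = 0.0046) and by 0.56 in K278R (adjusted p = 0.0108). These calls were lost in 5 and 7 of 21 alternatives. In MOAP-1 the change of GPI was -0.33 and was not called (adjusted p = 0.0647).

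The monocarboxylate transporters carry lactate and pyruvate across the plasma membrane. SLC16A1 (MCT1) read -1.93, -1.64, and -1.74 in Vector and -2.16, -2.26, and -2.07 in MOAP-1 tumors, a fall by 0.39 (standard error 0.14, adjusted p = 0.0435) that was lost in 13 of 21 alternatives. In K264R and K278R its changes were -0.18 and -0.23 and were not called. SLC16A3 (MCT4), which serves lactate export in glycolytic cells, changed by -0.21 in MOAP-1 (adjusted p = 0.445).

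In the mitochondria, PDK3 encodes a kinase that inactivates pyruvate dehydrogenase. Its signal was -3.79, -3.83, and -3.75 in Vector tumors, -3.01, -2.59, and -2.85 in MOAP-1, -3.15, -2.84, and -3.07 in K264R, and -3.29, -3.20, and -2.95 in K278R. PDK3 rose by 0.98 in MOAP-1 (standard error 0.13, adjusted p = 0.00026), by 0.78 in K264R (adjusted p = 0.00057), and by 0.65 in K278R (adjusted p = 0.0054), but its changes were -0.41, -0.12, and -0.59 under the normexp background model with all spots kept. Without the spots of extreme background that model gave 0.46 (adjusted p = 0.0166), 0.17, and 0.28, of which the first passed the test. The median change of all probes in MOAP-1 against Vector was -0.53 with these spots and -0.15 without them. The kinases PDK2 and PDK4 changed by 0.07 and 0.16 in MOAP-1 and were not called.

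PDHX, which anchors the E3 subunit in the complex, read -1.22, -1.20, and -1.30 in Vector and -0.58, -0.62, and -0.83 in MOAP-1 tumors. It rose by 0.56 in MOAP-1 (standard error 0.11, adjusted p = 0.00297) and by 0.60 in K264R (adjusted p = 0.00153). The catalytic E1 subunits were not called against Vector, with changes in MOAP-1 of 0.01 for PDHA1 and -0.27 for PDHB. In K264R the E2 subunit, DLAT, was higher by 0.41 (standard error 0.15, adjusted p = 0.049) and the E3 subunit, DLD, by 0.31 (standard error 0.10, adjusted p = 0.0266). The DLAT groups overlapped, the DLAT call was lost in 14 of 21 alternatives, and DLD turned to -0.21 under the normexp model and to -0.063 without the spots of extreme background.

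Pyruvate carboxylase, PC, which makes oxaloacetate from pyruvate, read 3.47, 3.37, and 3.29 in Vector and 2.91, 2.93, and 2.71 in MOAP-1 tumors. In K264R it read 2.79, 2.84, and 2.47 and in K278R 2.94, 2.49, and 2.78. PC fell by 0.53 in MOAP-1 (standard error 0.14, adjusted p = 0.0138), by 0.68 in K264R (adjusted p = 0.0028), and by 0.65 in K278R (adjusted p = 0.0092), with no overlap between these groups and Vector. PCK2 encodes the mitochondrial phosphoenolpyruvate carboxykinase. It fell by 0.59 in MOAP-1 (standard error 0.18, adjusted p = 0.0277) and by 0.51 in K264R (adjusted p = 0.0463) at its dimmer probe A_33_P3268532, whereas probe A_23_P128817 changed by 0.06 and 0.01. The calls at the dimmer probe were lost in 7 of 20 alternatives in MOAP-1 and in 14 of 20 in K264R.

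The mutants were compared with the same 3 Vector tumors, so that the 3 comparisons share their controls. K264R and K278R exchange lysines of MOAP-1. In K264R, 12 members were called, 8 higher and 4 lower. This is 37.5% of the members, beside 40.7% of all named genes. By direction, 25% of the members were higher and 12.5% lower, beside 20.9% and 21.2% of all named genes. The median change was 0.13 over the member probes and -0.05 over all probes. In K278R, 9 members were called, 5 higher and 4 lower, or 28.1% beside 24.5% of all named genes. Of the members, 15.6% were higher and 12.5% lower, beside 16.0% and 9.06% of all named genes. The median change there was 0.02, beside 0.06. Without Vector tumor 2 the K278R count was 5, beside 7.88% of all probes, and with only the 6 arrays compared in the fit it was 1, beside 3.99%. The main fit called 20.7% of all probes there, so the calls fell over the whole array. LDHA, LDHB, ENO2, PGAM1, and PDK3 were called higher in all 3 comparisons, of which PDK3 turned lower under normexp while the spots of extreme background were kept, and PFKL and PC were called lower.

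Wild type MOAP-1 was then compared with each mutant directly. No member was called between MOAP-1 and K264R by limma, as was the case for 0% of the named genes, and 2 members had an unadjusted p below 0.05, beside 12.7% of the named genes. Without adjustment, the methods' t-test also gave 2, and the share of all named genes under that test was not counted. DLAT had the largest difference, -0.59 (95% interval -0.91 to -0.27, adjusted p = 0.324), with -0.12 ± 0.11 in MOAP-1 and 0.47 ± 0.32 in K264R tumors (SD, n = 3). The 95% interval of the difference lay within 1 log2 unit of 0 for 37 of the 38 probes. This does not show that MOAP-1 and K264R act alike, since smaller differences remain possible and the groups shared no slide.

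Between MOAP-1 and K278R no member and 0% of the named genes were called by limma, and 6 members had an unadjusted p below 0.05, beside 11.4% of the named genes. Without adjustment the methods' t-test gave 1, again with the share of all named genes under that test not counted. LDHA differed by 0.77 at probe A_32_P44568 (95% interval 0.12 to 1.42, adjusted p = 0.481) and by 0.60 at the other probe (0.16 to 1.03, adjusted p = 0.465). For LDHB probe A_33_P3231432 the difference was 0.52 (0.18 to 0.85, adjusted p = 0.462), and for PDK3 it was 0.33 (0.06 to 0.60, adjusted p = 0.476). K278R tumor 3 stood nearer to MOAP-1 than K278R tumors 1 and 2 did at the LDHA and LDHB probes, and 1 member was called without it, beside 0.771% of all probes. On the slide that MOAP-1 tumor 2 shares with the K278R tumors, this tumor differed from their mean by 0.87 at LDHA probe A_32_P44568, by 0.53 at LDHB probe A_33_P3231432, and by 0.56 at PDK3. These values are part of the comparison over all tumors and come from 1 MOAP-1 tumor. These data do not show that MOAP-1 and K278R act alike, since intervals of several members reach well above 0.

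RASSF1A tumors did not differ from Vector at any member by limma, nor at any other named gene (0%). At an unadjusted p below 0.05 there were 10 members, beside 15.3% of the named genes. The methods' t-test gave 2, and its share of all named genes was not counted. The median change was -0.12 over the member probes and 0.02 over all. ENO1 read 0.86, 1.75, and 2.95 in RASSF1A tumors 1 to 3, a difference of -1.21 from Vector (standard error 0.37, adjusted p = 0.341). GAPDH read 4.54, 4.59, and 5.73, a difference of -0.93 (adjusted p = 0.341), and HK1 read -1.07, -1.52, and -0.67, a difference of -0.68 (adjusted p = 0.341). RASSF1A tumors 1 and 2, which were on another slide and scan day, were lower than RASSF1A tumor 3 at these genes.

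Leaving out RASSF1A tumor 3 changed this result. Then 7 members were called, all lower (ENO1, ENO2, GAPDH, PKM, HK1, PGAM1, and PFKP), along with 5.67% of all probes, and ENO1 differed by -1.76 (adjusted p = 0.00496). On the slide shared with the Vector tumors, RASSF1A tumor 3 differed from their mean by -0.11 at ENO1, by -0.16 at GAPDH, by 0.00 at PKM, and by -0.45 at ENO2. At LDHA probe A_32_P44568 it differed by -0.68, and at PFKL by 0.48. Slide and scan day cannot be told apart from the tumor for RASSF1A tumors 1 and 2, which were the only arrays of theirs.

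MOAP-1 and RASSF1A tumors differed at 16 members, 12 higher and 4 lower in MOAP-1. This is 50% of the members, beside 43.4% of all named genes, and 37.5% were higher and 12.5% lower, beside 25.1% and 20.3%. LDHA differed most, by 3.27 at probe A_32_P44568 (standard error 0.30, adjusted p = 3.96e-05), a 9.63-fold difference. PFKL differed by -2.72 (adjusted p = 5.3e-05), ENO2 by 2.42 (adjusted p = 9.6e-05), and ENO1 by 2.11 (standard error 0.37, adjusted p = 0.000828). GAPDH, a gene often used as a reference for RNA amounts, differed by 1.48 (standard error 0.28, adjusted p = 0.0012), PKM by 1.45 (adjusted p = 0.000922), and HK1 by 1.22 (adjusted p = 0.000466). In this comparison the groups did not overlap at any of these genes. How often groups of 3 tumors do not overlap over all probes was not counted in any comparison. With the scan day as a block, so that RASSF1A tumor 3 carries the comparison, 9 members and 12.4% of all probes were called, down from 37.2% of all probes without the block. The spread in that fit comes from all groups, since 1 RASSF1A tumor remains on the scan day of the others. LDHA then differed by 3.15 (adjusted p = 0.00359) and PFKL by -2.42 (adjusted p = 0.00584), whereas ENO1 (1.01, adjusted p = 0.0604), GAPDH (0.70, adjusted p = 0.0981), and PKM (0.73, adjusted p = 0.0769) lost their calls.

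Over all 5 constructs together, 17 members differed, or 53.1%, beside 49.3% of all named genes. The 11 members with no call in any of the 7 comparisons were ALDOC, ENO3, HK3, PDHA1, PDK2, PDK4, PFKM, PGAM2, PKLR, SLC16A3, and TPI1.

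The 6 members with 2 probes were used to ask whether the probes of 1 gene moved together. In MOAP-1 against Vector, all 6 pairs differed in their change, beside 38.6% of the 6314 pairs of probes of all named genes. The LDHB probes differed by 1.19 (standard error 0.15, adjusted p = 0.000243) and the LDHA probes by 1.42 (standard error 0.23, adjusted p = 0.000667). The PGAM1 probes differed by 0.70, those of PCK2 by 0.66, those of PFKP by 0.53, and those of HK2 by 0.47, of which the HK2 value rests on a dim probe well above background in 1 Vector tumor. For LDHA, LDHB, PGAM1, PFKP, and HK2 the dimmer probe had the higher change, and for PCK2 the lower one. In K264R 4 of the 6 pairs differed (41.2% of all pairs), in K278R 5 (26.6%), and in MOAP-1 against RASSF1A all 6 (45.2%). No gene had called probes in opposite directions. Processed copies of GAPDH, ENO1, LDHA, LDHB, and PGAM1 are known in the genome, and what else a probe binds was not tested.

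**Figure D3:**
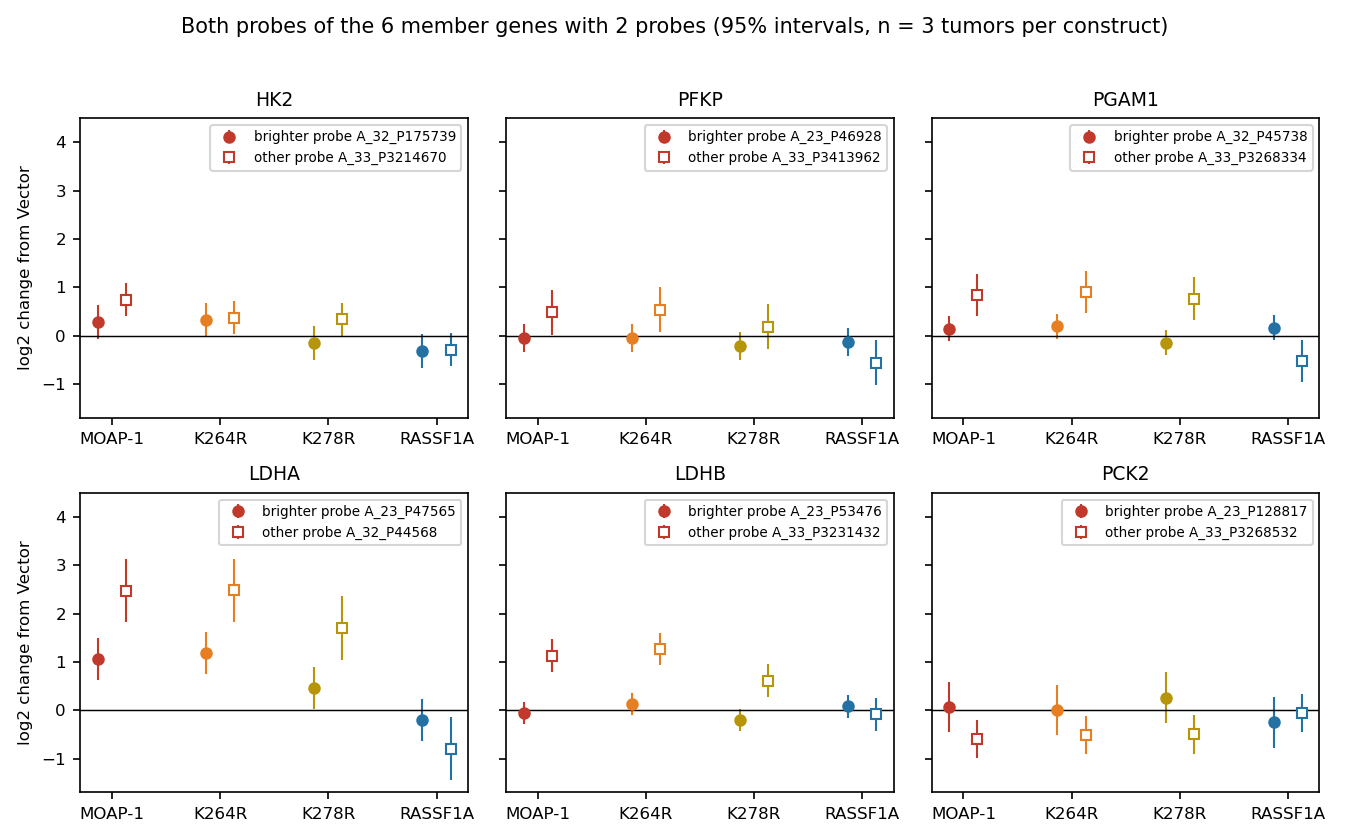
Change from Vector (y axis, log2 scale) of the brighter (filled circle) and the other probe (open square) of the 6 members with 2 probes, in MOAP-1, K264R, K278R, and RASSF1A tumors (x axis), with 95% confidence intervals (n = 3 tumors per construct). At LDHB the brighter probe stays between -0.20 and 0.14, while the other rises by 0.62 to 1.27 in the MOAP-1 constructs. The rise of the dim HK2 probe in MOAP-1 turned negative under the normexp background model.

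The muscle forms of 2 enzymes varied between single tumors rather than between constructs. ENO3, the muscle enolase, read 1.096 in Vector tumor 1 and 0.65 in RASSF1A tumor 2, and between -0.76 and 0.04 in the other 13 tumors. PGAM2, the muscle phosphoglycerate mutase, was highest in Vector tumor 1 as well, at 0.37, but read -0.15 in RASSF1A tumor 2. The summed signal of 10 probes of 9 skeletal muscle genes, given as a multiple of the 75th percentile, was 32.6 in Vector tumor 1 and 12.8 in RASSF1A tumor 2, and at most 2.80 in the others. In Vector tumor 1 the myosin gene MYH2 read 4.06 and the troponin gene TNNC2 2.53, whereas ACTA1 read -4.32. Neither ENO3 nor PGAM2 was called in any comparison, and the part of muscle RNA in their values was not tested.

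**Figure D4:**
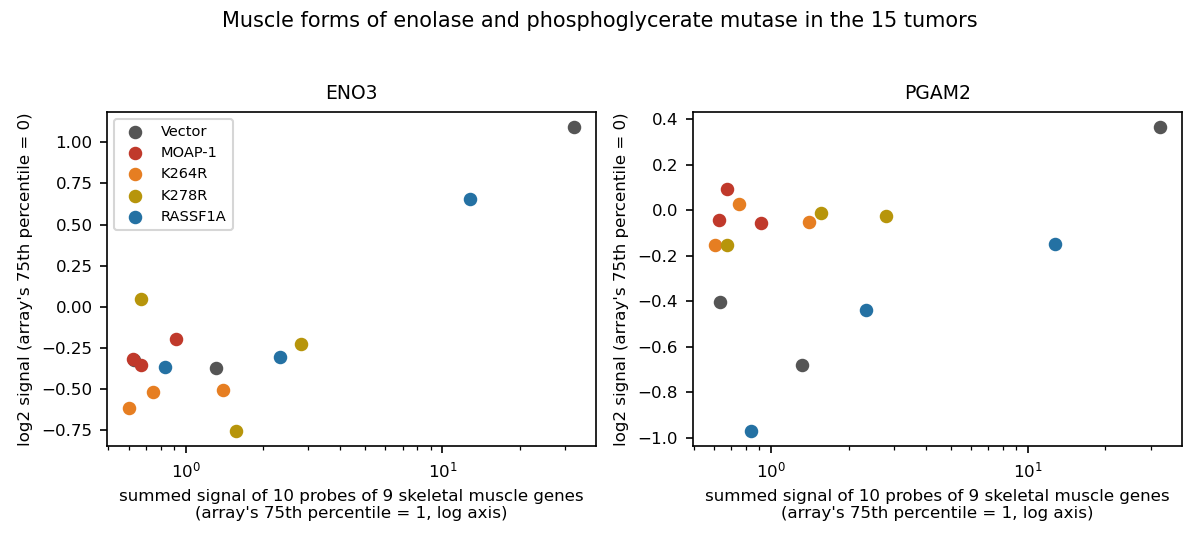
Log2 signal of ENO3 and PGAM2 (y axis) against the summed signal of 10 probes of 9 skeletal muscle genes (x axis, log scale, 75th percentile of the array = 1) in each of the 15 tumors, colored by construct. Vector tumor 1, at 32.6, and RASSF1A tumor 2, at 12.8, stand to the right of all others and have the highest ENO3 signals.

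Fibroblast genes also differed between tumors. The summed signal of 12 probes of 10 such genes lay between 5.72 and 44.1 in MOAP-1, 4.66 and 19.4 in K264R, 10.9 and 41.6 in K278R, 8.07 and 11.45 in RASSF1A, and 2.05 and 7.77 in Vector tumors. Of the 7 fibroblast genes tested, 2 (28.6%) were called higher in MOAP-1 against Vector, beside 21.0% of all named genes. All 8 of their kept probes had a change above 0 there, with a median of 1.85, beside 0.02 over all probes kept. The median was 0.50 in K264R (7 of 8 above 0), 1.72 in K278R (8 of 8), and 1.05 in RASSF1A (8 of 8). MOAP-1 tumor 1, at 5.72, was within the Vector range, and its LDHA, ENO2, and PFKL signals (3.42, 0.68, and 2.07) were outside the range of the Vector tumors, as in the other MOAP-1 tumors. These are chosen genes in 1 tumor, and the part of host stroma in the members' values was not tested. Leukocyte genes summed to 9.05 to 11.8 in MOAP-1 and 9.08 to 9.26 in Vector tumors.

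Genes of the same pathways outside the set were counted from lists. Of 42 further genes of glycolysis and pyruvate use, 14 were called in MOAP-1 against Vector, 12 higher and 2 lower. SLC2A3, the glucose transporter GLUT3, rose at both probes, by 1.94 (standard error 0.23, adjusted p = 0.00019) and 1.84 (adjusted p = 0.000411). LDHAL6B, a lactate dehydrogenase gene known from testis, rose by 2.49 (standard error 0.66, adjusted p = 0.0128), with overlapping groups. Its Vector mean was -5.37 with an SD of 1.46, and the dimmest signals above background in Vector tumors lay between -6.98 and -6.06. The testis gene PGK2 rose by 1.60 (adjusted p = 0.00624). PFKFB2, an enzyme that makes the activator of phosphofructokinase, rose at both probes, by 1.41 (adjusted p = 0.000218) and 0.69 (adjusted p = 0.00236). At 1 of its 2 probes ME3, the mitochondrial malic enzyme, fell by 1.07 (adjusted p = 0.000427). SLC2A1 (GLUT1), the transporter of most tumor cells, changed by -0.10 (adjusted p = 0.638).

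The tricarboxylic acid cycle takes up the acetyl-CoA made from pyruvate, and 10 of its 16 listed genes were called in MOAP-1 against Vector, with a median change of 0.73 over 24 probes. IDH3B rose by 1.26 (standard error 0.28, adjusted p = 0.00485) and IDH3A by 1.21 (standard error 0.16, adjusted p = 0.000301), both subunits of isocitrate dehydrogenase. SDHC, a subunit of succinate dehydrogenase, rose by 0.73 at 1 probe (adjusted p = 0.00116) and fell by 0.71 at another (adjusted p = 0.0314). Of 20 hypoxia-responsive genes outside glycolysis, 3 were called, 2 higher and 1 lower. BNIP3L, a mitophagy receptor, rose by 0.63 at 1 of its 2 probes (standard error 0.17, adjusted p = 0.0146), and 1 of the 3 MXI1 probes fell by 1.23 (adjusted p = 0.000233). The third, the membrane carbonic anhydrase CA12, had overlapping groups and a Vector mean of -6.94 with an SD of 1.67, near the dimmest signals above background, so no fold is given for it. The median change over their 25 probes was 0.12. Of 14 transcription regulators of glycolysis genes, 6 were called, 5 higher and 1 lower, and USF1, a factor that binds CACGTG, rose by 1.19 (standard error 0.32, adjusted p = 0.0141). HIF1A, the oxygen-regulated subunit, rose by 1.86 at 1 probe (standard error 0.40, adjusted p = 0.00436) and changed by 0.01 at the other. In MOAP-1 against Vector, 35.8% of all named genes were called, 21.0% higher and 16.0% lower. In the same order, the further glycolysis and pyruvate genes had 33.3%, 28.6%, and 4.76%. The tricarboxylic acid cycle genes had 62.5%, 56.2%, and 12.5%. The hypoxia-responsive genes had 15%, 10%, and 5%, and the regulators 42.9%, 35.7%, and 7.14%. Probes per gene were 1.5 for the cycle, 1.57 for the regulators, and 1.25 for the hypoxia-responsive genes. They were 1.29 for the further genes and for all named genes. A gene with more probes had more chances of a call.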

How the data were processed

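RNA from 15 HCT116 xenograft tumors was hybridized to one-color Agilent arrays, 3 tumors for each of 5 constructs, with groups taken from the labels. The authors deposited the Feature Extraction output of each array, which holds a background-corrected intensity for each spot (the processed signal) and the median spot and background intensities before correction. They also deposited a log2 table made in GeneSpring, of which 8 of 15 columns follow the array of their own label and 15 of 15 an array of the same construct, so it served only as an alternative. The submitters' processing notes name Agilent Feature Extraction 9.1.

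Processed signals of 43118 spots were log2-transformed after control and outlier spots had been left out, each array's 75th percentile was set to 0, and spots of a probe were averaged (34127 probes). Accessions gave 25422 probes (74.5%) a RefSeq gene name (GRCh38.p14). The filter on dim probes asked that the 3 tumors of some construct all be well above background, which kept 30598 probes, 112 of them without a value on some array. No depth exists for arrays, and the number of tumors limits the precision.

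All arrays were fitted with limma 3.58.1 (R 4.3.3, lmFit and eBayes, construct only, with 10 degrees of freedom left), and the Benjamini-Hochberg adjustment ran over all kept probes. Standard errors and 95% intervals come from this fit. The script was tested on simulated data. Members and lists were chosen with earlier results of these data known. Per tumor values are given for called members with the largest changes in each direction (up to 5), and for PKM and LDHA; of other lists, up to 3 called genes in each direction are named. ENO1, GAPDH, HK1, PDHX, SLC16A1, SLC2A1, PFKFB2, SDHC, MYH2, TNNC2, and ACTA1 were chosen for values after these had been seen. Alternatives were quantile normalization, normexp (offset 50), other filters, the log2 table, slide, scan day, or replicate number as a block, only the arrays compared, the brightest probe of each gene, a 1.5-fold threshold, the methods' t-test, and leaving out each tumor. Figures were drawn with matplotlib. The value of 1 called gene of the other lists is not reported here.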

Additional observations from a re-analysis of the deposited data

Results flagged for a closer look

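The change from Vector differed between MOAP-1 and RASSF1A at 16 members, as tested directly between these constructs by limma. The largest of these differences were 3.27 at LDHA (probe A_32_P44568), -2.72 at PFKL, 2.42 at ENO2, 2.11 at ENO1, and 1.48 at GAPDH on the log2 scale. Of these 5, ENO1 and GAPDH lost their call with the scan day as a block. RASSF1A tumors 1 and 2 were alone on their slide and scan day, and the part of either in these differences was not tested. Groups of 3 tumors were too small to look for a single tumor far from the others.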

How the results depend on the processing

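The count of called members kept its size within 1.5 times under most alternatives. Under normexp it was 3 in MOAP-1 (from 12), 3 in K264R (from 12), 0 in K278R (from 9), and 8 over the 5 constructs (from 17), with 1.76%, 3.13%, 0.00327%, and 6.56% of all probes called. Without the spots of extreme background, on Vector tumors 2 and 3 and K264R tumor 2, normexp gave 9, 15, 7, and 19 members. The shares of all probes called were then 24.2%, 57.7%, 9.71%, and 55.9%. By the methods' t-test with Benjamini-Hochberg adjustment and at least 1.5-fold the member count was 3, 7, and 0 in these constructs against Vector and 9 in MOAP-1 against RASSF1A (from 16). Of all probes, 8.59%, 14.1%, 0%, and 13.7% were called by that test. With the brightest probe of each gene the member count was 7 in MOAP-1 against Vector, where 7456 probes of the array were called and their share was not counted. With only the arrays compared the member count was 1 in K278R. With the scan day as a block it was 9 in MOAP-1 against RASSF1A, beside 12.4% of all probes. The same t-test without adjustment, at least 1.5-fold, gave 1 (from 0) in MOAP-1 against K264R, beside 1.03% of all probes. With only the arrays compared, 3.99% of all probes were called in K278R against Vector. Leaving out 1 tumor gave 8 to 11 members in MOAP-1, 8 to 11 in K264R, 5 to 9 in K278R (5 without Vector tumor 2), and 0 to 7 in RASSF1A against Vector (7 without RASSF1A tumor 3). It gave 0 in MOAP-1 against K264R, 0 to 1 against K278R (1 without K278R tumor 3), 13 to 16 against RASSF1A, and 15 to 20 over the 5 constructs. In the same order, the shares of all probes called were 19.1% to 28.2%, 24.9% to 33.2%, 7.88% to 20.5%, and 0% to 5.67% against Vector. In the other comparisons they were 0% to 0.118%, 0% to 0.771%, 28.8% to 36.6%, and 34.7% to 46.6%. All 9 reversed values arose under normexp, those of PDK3 only with the spots of extreme background kept: PDK3 at -0.41, -0.12, and -0.59 in MOAP-1, K264R, and K278R against Vector, HK2 probe A_33_P3214670 at -1.48 (-0.22 with spots of extreme background left out) against Vector and at -0.030 (-0.030) against RASSF1A, and DLD at -0.21 (-0.063) in K264R. In MOAP-1 against Vector, normexp moved the median of all probes to -0.53, and to -0.15 with these spots left out.

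Numbers shared between groups were not taken to pair the tumors. Same-numbered tumors of MOAP-1 and Vector had deviations correlated at -0.21, 0.14, and -0.22. Over all comparisons these correlations ran from -0.25 (MOAP-1 and RASSF1A tumors 3) to 0.37 (MOAP-1 and K264R tumors 1). They do not show that no pairing exists. With the replicate number as a block, 13 members were called in MOAP-1, 11 in K264R, 8 in K278R, and 0 in RASSF1A against Vector, 15 in MOAP-1 against RASSF1A, 0 against each mutant, and 15 over the 5 constructs. The shares of all probes called were 30.6%, 34.6%, 21.1%, 0%, and 37.2%, then 0.00327% and 0% against K264R and K278R, and 42.5%. Slide as a fixed block could be fitted only for RASSF1A against Vector and MOAP-1 against K278R, with 0 members in each. The shares of all probes called were 0.114% and 0.0131%. Leaving out RASSF1A tumors 1 and 2, chosen after seeing the data, left 33 of 35 calls against Vector. The shares of all probes called against Vector were then 30.7% in MOAP-1, 35.0% in K264R, and 21.7% in K278R.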
